A study of Mus musculus with 12 samples.

Results

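The livers held transcripts of 39 genes of the extracellular matrix and of the hepatic stellate cell, which were followed through a knockdown of Eif3m. The genes were taken by symbol, as collagens, other matrix proteins, remodelling enzymes, and signals or markers of stellate cells, and each of the 39 was found once among the 50686 gene IDs of the count table. The rule uses no measured value, but the genes were chosen with earlier results of these data known. Of the 39 genes, 38 had enough counts to be tested among 14248 tested genes, and Timp1 did not.

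The study compared 4 groups of 3 libraries, 12 in all. All mice were of the strain FVB/N, were 6 to 8 weeks old and were injected in the tail vein with lipid nanoparticles (LNP) that carried a small interfering RNA (siRNA). The dose was 0.5 mg/kg, and the schedule was 1 injection in 5 days. The groups were Eif3m siRNA at day 9, control siRNA at day 9, Eif3m siRNA at day 13 and control siRNA at day 13, where the control is called scrambled luciferase. Nanoparticles of this kind are taken up mainly by hepatocytes, and whole ground liver was sequenced, so that each value is a mixture of all liver cell types. The labels do not say that each library came from its own mouse, so that p-values measure the spread between these libraries, which may be in part technical.

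Matrix of the healthy liver is sparse. It consists of basement membrane components and thin fibrils in the space between hepatocytes and the sinusoidal endothelium, with denser fibrillar collagen around portal tracts and central veins. Quiescent stellate cells lie in that space and store vitamin A as retinyl ester. On injury they can become myofibroblast-like cells, driven above all by transforming growth factor beta (TGF-beta) and platelet-derived growth factor (PDGF), and they then make fibrillar collagens and the contractile actin encoded by Acta2. Enzymes of the lysyl oxidase family crosslink the fibrils, matrix metalloproteases cut them, and tissue inhibitors of metalloproteases (TIMPs) hold the proteases back.

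The day 9 libraries had total counts between 38783564 and 54538581, and the day 13 libraries between 7650269 and 9630027. The days form separate sets of libraries, so that each siRNA effect was read against the control libraries of its own day. Eif3m itself stood at 4.88, 4.78 and 4.71 CPM (counts scaled to library size) with Eif3m siRNA, against 45.1, 44.1 and 45.4 CPM with control siRNA at day 9. At day 13 it stood at 2.52, 2.41 and 2.19 CPM with Eif3m siRNA, against 39.8, 38.0 and 31.2 CPM with control siRNA, and its exons overlap those of Ccdc73. Among day 13 libraries, control replicate 3 lay at 51.99 on the third principal component, against -18.01 and -15.29 for the other control replicates. Eif3m siRNA replicate 2 lay at 36.86 there, against -37.65 and -4.676 for the other replicates of its group. Within groups, log2 CPM of the median gene had an SD of 0.13 with Eif3m siRNA and 0.14 with control siRNA at day 9, and 0.25 with Eif3m siRNA and 0.27 with control siRNA at day 13. The 12 markers listed for hepatocytes, the main cell type of the labelled tissue, summed to between 121696 and 132332 CPM with Eif3m siRNA and between 142593 and 153262 CPM with control siRNA at day 9. Albumin (Alb) made up most of that sum, at a mean of 68265 CPM with Eif3m siRNA and 89669 CPM with control siRNA, while 7 of the 12 markers had log2 fold changes above 0 (median 0.12), with 1 called higher and 2 lower. This was a share of 25%, against 12.8% of all tested genes.

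The 6 promoters printed here belong to genes on which the results turn. Ecm1 was lower with Eif3m siRNA at both days. Col1a2, Col3a1, Col5a1 and Tgfbi had siRNA effects that differed between the days and have 1 promoter each in the RefSeq table for GRCm38.p6, the mm10 build. Col4a1 starts head to head with Col4a2, so that their exons overlap by 22 bases, and both were higher at day 9. Each run of 300 bases covers 250 bases before the start and 50 from it, 5′ to 3′ on the gene's own strand.
Ecm1, chr3:95739520-95739819, minus strand: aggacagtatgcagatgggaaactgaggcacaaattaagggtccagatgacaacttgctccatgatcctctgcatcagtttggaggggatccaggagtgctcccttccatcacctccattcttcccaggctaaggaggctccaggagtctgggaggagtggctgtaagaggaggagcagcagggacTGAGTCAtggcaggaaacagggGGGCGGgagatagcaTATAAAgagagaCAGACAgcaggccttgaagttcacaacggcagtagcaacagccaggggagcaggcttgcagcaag
Col1a2, chr6:4505368-4505667, plus strand: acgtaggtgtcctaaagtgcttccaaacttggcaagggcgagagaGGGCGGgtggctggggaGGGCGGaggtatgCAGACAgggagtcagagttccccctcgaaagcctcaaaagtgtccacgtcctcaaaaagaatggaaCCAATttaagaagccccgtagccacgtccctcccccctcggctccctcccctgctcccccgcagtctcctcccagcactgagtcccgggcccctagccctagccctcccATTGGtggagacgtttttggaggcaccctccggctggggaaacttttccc
Col3a1, chr1:45311288-45311587, plus strand: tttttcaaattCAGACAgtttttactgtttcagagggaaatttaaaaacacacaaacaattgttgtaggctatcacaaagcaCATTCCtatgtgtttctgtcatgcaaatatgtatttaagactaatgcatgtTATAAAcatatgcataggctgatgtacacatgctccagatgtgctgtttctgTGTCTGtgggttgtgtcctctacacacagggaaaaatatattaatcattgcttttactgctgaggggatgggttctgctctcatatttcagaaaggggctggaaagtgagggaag
Col5a1, chr2:27886175-27886474, plus strand: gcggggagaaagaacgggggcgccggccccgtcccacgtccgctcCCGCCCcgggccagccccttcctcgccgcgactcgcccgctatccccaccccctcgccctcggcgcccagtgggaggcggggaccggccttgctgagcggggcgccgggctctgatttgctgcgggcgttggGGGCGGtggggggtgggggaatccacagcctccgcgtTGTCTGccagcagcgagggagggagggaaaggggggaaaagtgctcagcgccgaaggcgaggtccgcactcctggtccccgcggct
Tgfbi, chr13:56609336-56609635, plus strand: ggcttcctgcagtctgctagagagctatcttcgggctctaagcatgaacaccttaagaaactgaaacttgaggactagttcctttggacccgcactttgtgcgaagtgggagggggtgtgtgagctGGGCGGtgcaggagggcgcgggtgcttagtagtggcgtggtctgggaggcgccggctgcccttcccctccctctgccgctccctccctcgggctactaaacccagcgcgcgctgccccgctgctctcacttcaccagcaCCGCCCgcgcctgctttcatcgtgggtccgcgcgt
Col4a1, chr8:11312777-11313076, minus strand: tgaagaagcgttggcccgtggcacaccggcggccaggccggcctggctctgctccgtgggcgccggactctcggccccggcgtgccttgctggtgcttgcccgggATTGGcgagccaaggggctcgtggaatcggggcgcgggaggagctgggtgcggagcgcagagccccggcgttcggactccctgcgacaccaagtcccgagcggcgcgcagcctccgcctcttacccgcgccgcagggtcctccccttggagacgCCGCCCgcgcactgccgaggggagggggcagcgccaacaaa
Capitals mark matches, on either strand, to an AP-1 site (TGANTCA), a TEAD site (GGAATG), an SP1 site (GGGCGG), the SMAD box (CAGACA), the TATA box (TATAAA), the CCAAT box or the CArG box of serum response factor. No capital stretch holds overlapping matches of different motifs. These motifs were chosen with the results known, and a match is a description of letters only.

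The Ecm1 promoter held an AP-1 match whose first base lies at -64, an SP1 match at -42, a TATA match at -27 and a SMAD match at -15, counted from the start. The Col1a2 promoter held SP1 matches at -205 and -188, a SMAD match at -175 and CCAAT matches at -109 and at base 1. The Col3a1 promoter held SMAD matches at -239 and -65, a TEAD match at -168 and a TATA match at -117. The Col5a1 promoter held SP1 matches at -205 and -73 and a SMAD match at -36. Both the Tgfbi and the Col4a1 promoters held SP1 matches, and the Col4a1 promoter also a CCAAT match at -145. Of 27 genes with a promoter in the table, 10 held a SMAD match, 19 an SP1 match, 10 a CCAAT match, 5 a TEAD match, 2 an AP-1 match, 2 a TATA match and none a CArG match. Over all 32851 promoters of the table, the shares with a match were 21% for SMAD, 35.7% for SP1, 37.4% for CCAAT, 14.7% for TEAD, 7.81% for AP-1, 13.6% for TATA and 1.63% for CArG. Genes with several listed promoters were counted if any of them held the match.

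Per kilobase of exon, levels in the day 9 control livers covered a wide range. Fn1, which encodes fibronectin and is secreted into plasma by hepatocytes, stood at 158 CPM per kilobase and made up 48% of the sum of all 39 genes on this scale. Ecm1, a secreted glycoprotein made by hepatocytes, followed at 28.6 CPM per kilobase, then Sparc at 21.1 and Dcn at 19.5 CPM per kilobase. Col3a1 stood at 4.10 CPM per kilobase, Col1a2 at 1.22 and Col1a1 at 1.12, and Lox was the lowest of the 39 at 0.0628 CPM per kilobase. In the day 13 control livers Col3a1 stood at 9.84, Col1a1 at 4.90 and Col1a2 at 3.36 CPM per kilobase, against 157 for Fn1 and 41.4 for Ecm1. The fibrillar collagens were thus minor transcripts beside Fn1 and Ecm1 in the control livers of both days. The length of a gene was that of all its annotated exons merged, so these levels depend on the annotation.

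The first comparison asked how the 39 genes stood with Eif3m siRNA at day 9. Of the 38 tested, 7 were higher (Lgals3, Eln, Col3a1, Fbn1, Col4a2, Col4a1 and Col14a1) and 1 was lower (Ecm1), at an adjusted p under 0.05. Over all 14248 tested genes, 5.94% were called higher and 6.84% lower. The median log2 fold change was 0.36 for the 38 genes and 0.01 for all tested genes, with 33 of the 38 above 0. In 19 of the 38 genes every Eif3m siRNA library lay above every control library, which held for 22.5% of all tested genes. The groups lay apart in the other direction for Ecm1 alone of the 38, as they did for 21% of all tested genes.

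At day 13 the counts ran the other way. None was called higher and 13 were called lower with Eif3m siRNA (Col1a1, Col1a2, Col3a1, Col5a1, Col5a2, Col6a1, Col6a2, Col14a1, Sparc, Ecm1, Tgfbi, Timp2 and Colec11), where 12.8% of all tested genes were called higher and 10.9% lower. By DESeq2 none was called higher and 14 lower, and by limma-voom none was called higher and 10 lower, without Col5a1, Col6a1 and Colec11. Of all 14248 tested genes, DESeq2 called 2031 higher and 1775 lower, and limma-voom 1501 higher and 1217 lower. In edgeR 17 of the 38 had an unadjusted p under 0.05 in either direction, as had 5123 of the 14248 tested genes. The median log2 fold change was -0.32, against 0.00 for all tested genes, with 31 of the 38 below 0. In 15 of the 38 genes every Eif3m siRNA library lay below every control library, which held for 16% of all tested genes. In none did every siRNA library lie above every control library, as it did in 17.2% of all tested genes. In bulk liver, fewer cells of a type and less RNA per cell cannot be told apart.

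The difference between the days, the day 13 effect minus the day 9 effect, was tested in the same model. It was called negative for 8 of the 38 genes (Col1a1, Col1a2, Col3a1, Col5a1, Col5a2, Col6a2, Col14a1 and Tgfbi) and positive for none, against 1.66% and 0.898% of all tested genes. Its median was -0.63 for the 38 genes and 0.03 for all tested genes, and it was below 0 in 37 of the 38. Only Col3a1 and Col14a1 of the 38 were called higher at day 9 and lower at day 13. Day and library set cannot be told apart in this design, and depth differs with them. With day 9 counts thinned to the day 13 depth, the median difference was -0.64, and 7 of 37 tested genes were called negative. How many injections a day 13 mouse had received is not given. The 20 genes called at neither day were Col6a3, Lum, Dcn, Bgn, Fn1, Fbln5, Lox, Loxl1, Mmp2, Mmp14, Timp3, Tgfb1, Hgf, Pdgfra, Pdgfrb, Acta2, Tagln, Des, Lrat and Reln.

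**Figure D1:**
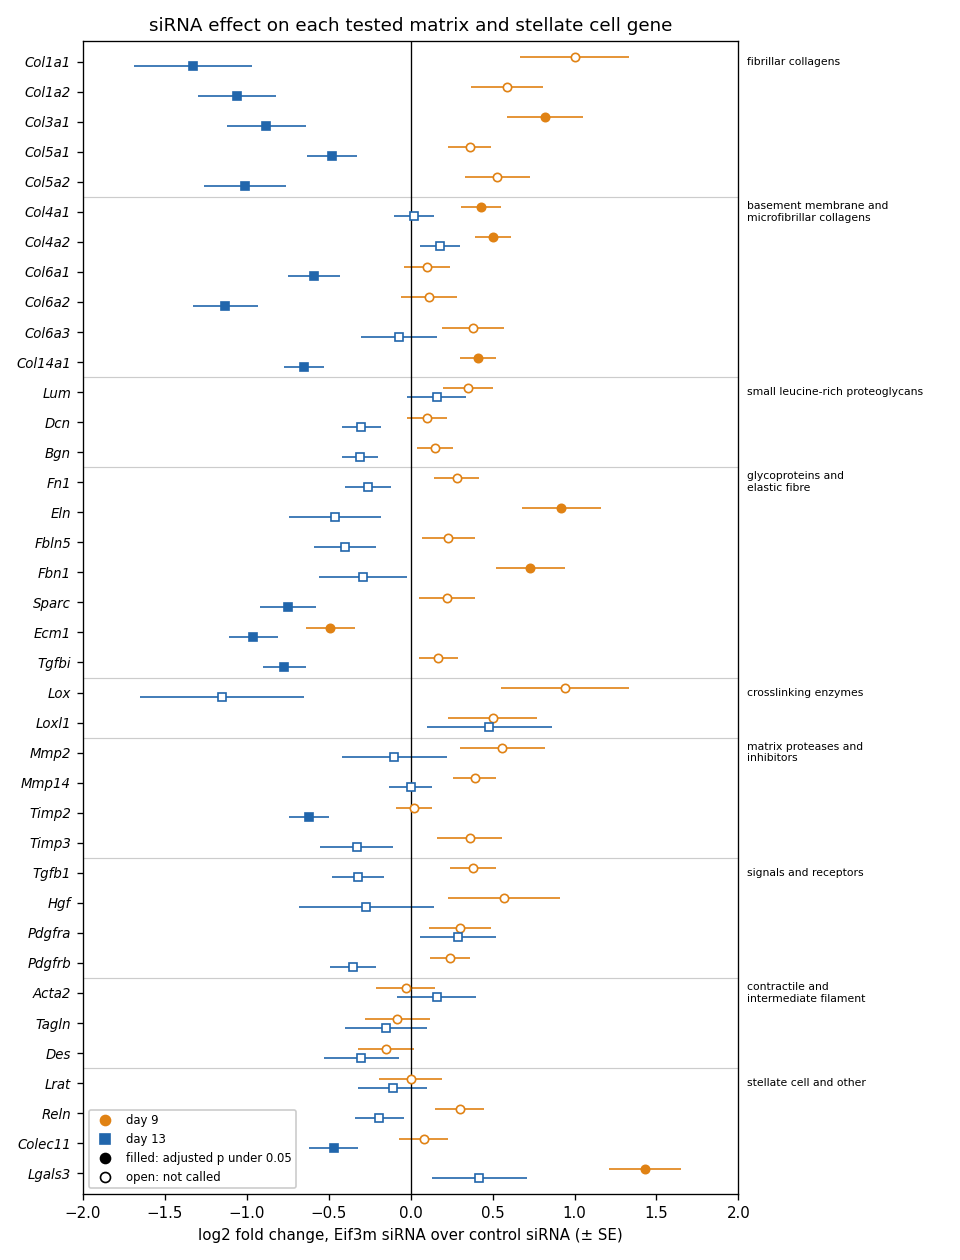
Log2 fold change, Eif3m siRNA over control siRNA (horizontal axis, ± SE), for each of the 38 tested genes (vertical axis), grouped by role; circles are day 9, squares day 13, and filled symbols have an adjusted p under 0.05. Day 9 symbols lie to the right of 0 for 33 genes and day 13 symbols to the left of 0 for 31 genes.

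Fibrillar collagens form the load-bearing fibrils of scar and vessel walls. Type I collagen is built of Col1a1 and Col1a2 chains, type III collagen of Col3a1 chains, and type V collagen, with Col5a1 and Col5a2 chains, helps start the fibrils. All 5 genes had log2 fold changes above 0 at day 9, of which that of Col3a1 was called, and all 5 were called lower at day 13. All 5 differed between the days. Their summed level was 107 to 143 CPM with Eif3m siRNA and 62.8 to 81.2 CPM with control siRNA at day 9, and 85 to 108 CPM with Eif3m siRNA and 139 to 273 CPM with control siRNA at day 13.

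Col1a1 was at 18.9, 12.7 and 12.5 CPM with Eif3m siRNA at day 9, against 7.48, 9.14 and 5.33 CPM with control siRNA. The groups did not overlap, but the gene was not called (log2 fold change 1.00, SE 0.33, adjusted p = 0.0722). Under 4 of 22 alternative settings it was called higher, among them DESeq2 and limma-voom. At day 13 Col1a1 was at 17.1, 9.74 and 11.7 CPM with Eif3m siRNA, against 24.8, 51.0 and 20.8 CPM with control siRNA. Every siRNA library lay below every control library, and Col1a1 was called lower (log2 fold change -1.33, SE 0.36, adjusted p = 0.0205). Control replicate 2 was the highest of the day 13 libraries, and without it the log2 fold change was -0.84. The call was lost without that library, Eif3m siRNA replicate 2 or Eif3m siRNA replicate 3 of day 13, with an adjusted p of 0.0591 to 0.0857.

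Col1a2 was at 27.5, 19.7 and 21.2 CPM with Eif3m siRNA at day 9, against 14.8, 16.9 and 13.9 CPM with control siRNA (log2 fold change 0.59, SE 0.22, adjusted p = 0.102). Its day 13 levels were 22.1, 18.7 and 19.1 CPM with Eif3m siRNA, against 35.9, 60.8 and 28.4 CPM with control siRNA. The 3 siRNA libraries of day 13 lay close together and below all controls, and Col1a2 was called lower (log2 fold change -1.06, SE 0.24, adjusted p = 0.00585). The log2 fold change was -0.69 without control replicate 2 of that day, and the call held whichever single library was left out.

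Col3a1 had the highest CPM of the 5 and was the one called at both days. It was at 83.0, 61.7 and 68.7 CPM with Eif3m siRNA at day 9, against 40.5, 45.4 and 35.0 CPM with control siRNA (log2 fold change 0.82, SE 0.23, adjusted p = 0.0342). Day 13 libraries had 59.3, 54.4 and 43.9 CPM with Eif3m siRNA, against 72.8, 143 and 74.3 CPM with control siRNA (log2 fold change -0.88, SE 0.24, adjusted p = 0.0173). The groups did not overlap at either day. The day 9 call was lost without any 1 of the day 9 libraries or day 13 Eif3m siRNA replicate 2 (adjusted p 0.0536 to 0.127). The day 13 call was lost without Eif3m siRNA replicate 3 or control replicate 2 of that day (adjusted p 0.0575 to 0.0731), and the log2 fold change was -0.48 without that control library. Exons of Col3a1 overlap those of Gm47302.

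Col5a1 had the smallest day 13 log2 fold change of the 5. It was at 10.4, 9.95 and 8.38 CPM with Eif3m siRNA at day 9, against 7.97, 7.58 and 6.81 CPM with control siRNA (adjusted p = 0.0862). In the day 13 livers it was at 7.13, 7.60 and 8.10 CPM with Eif3m siRNA, against 9.15, 12 and 10.7 CPM with control siRNA (log2 fold change -0.48, SE 0.15, adjusted p = 0.0382). The groups did not overlap at either day. The day 13 call of Col5a1 was lost without Eif3m siRNA replicate 1, 2 or 3, or control replicate 2 or 3 of that day (adjusted p 0.0639 to 0.131). Its exons overlap those of 2810430I11Rik and Gm13372.

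Col5a2 was at 3.55, 2.92 and 2.70 CPM with Eif3m siRNA at day 9, against 2.47, 2.19 and 1.71 CPM with control siRNA (log2 fold change 0.53, adjusted p = 0.108). At day 13 it was at 2.80, 2.78 and 2.19 CPM with Eif3m siRNA, against 4.31, 6.84 and 4.55 CPM with control siRNA. The groups lay apart at both days, in opposite directions, and the day 13 call (log2 fold change -1.01, SE 0.25, adjusted p = 0.0104) held without any single library. As for Col1a1, Col1a2 and Col3a1, the highest value of all 12 libraries was that of day 13 control replicate 2.

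For Col1a1 the control libraries of the 2 days lay further apart than the siRNA libraries did. The Eif3m siRNA libraries spanned 9.74 to 17.1 CPM at day 13 and 12.5 to 18.9 CPM at day 9. The control libraries spanned 20.8 to 51.0 CPM at day 13 and 5.33 to 9.14 CPM at day 9. Col1a2 and Col5a2 likewise had siRNA libraries that overlapped between the days and control libraries that did not. For Col3a1 neither kind overlapped, with siRNA libraries lower and control libraries higher at day 13 than at day 9. No test was made between the days within a treatment, since they are separate library sets.

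**Figure D2:**
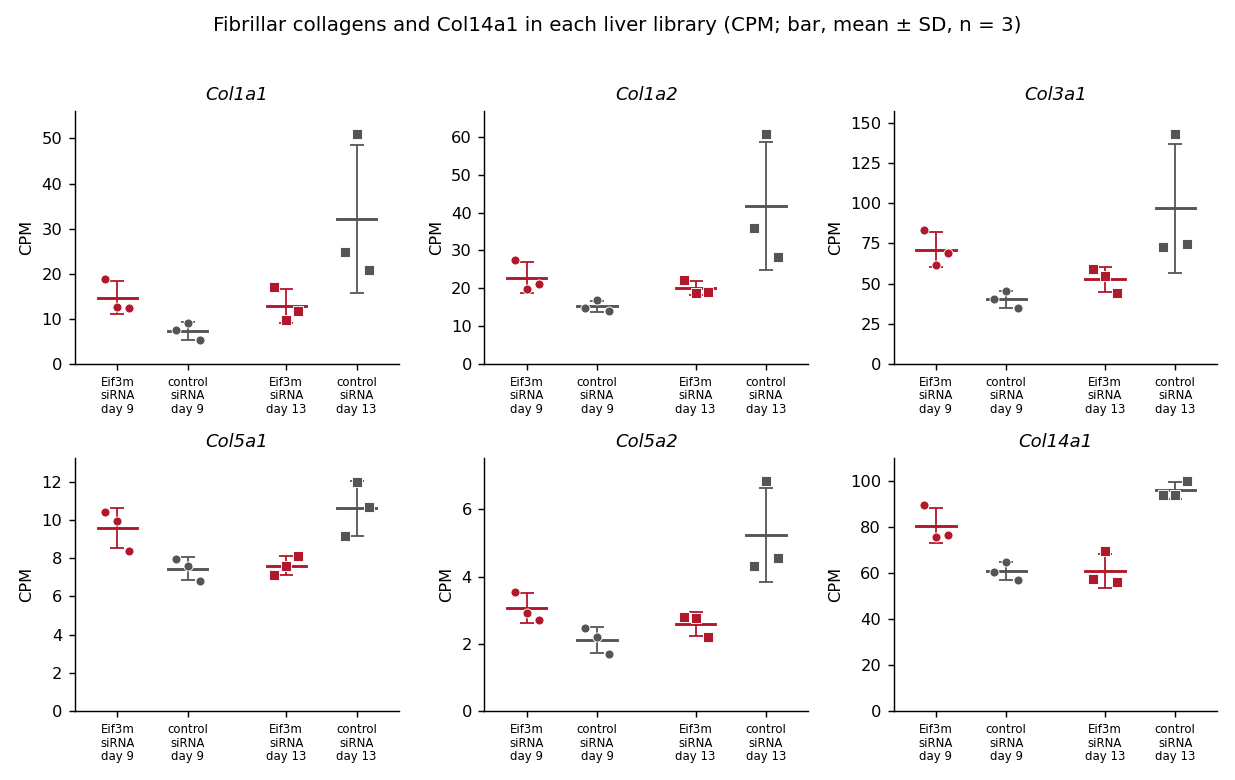
CPM (vertical axis, from 0) of Col1a1, Col1a2, Col3a1, Col5a1, Col5a2 and Col14a1 in each library; at each day Eif3m siRNA (red) stands left of control siRNA (grey), points are libraries, bars the mean and whiskers the SD of 3. Eif3m siRNA libraries lie above the controls at day 9 and below them at day 13, where control replicate 2 of Col1a1 reaches 51.0 CPM.

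Type IV collagen, built of Col4a1 and Col4a2 chains, forms the sheet of basement membranes, and the pair shares a start region. Both were higher at day 9. Col4a1 was at 56.5, 48.6 and 45.0 CPM with Eif3m siRNA, against 38.5, 38.3 and 34.8 CPM with control siRNA (log2 fold change 0.43, SE 0.12, adjusted p = 0.0305). Col4a2 was at 48.8, 43.7 and 42.7 CPM with Eif3m siRNA, against 34.8, 32.3 and 28.4 CPM with control siRNA (log2 fold change 0.50, SE 0.11, adjusted p = 0.0117). No siRNA library of day 9 overlapped the controls in either gene. At day 13 Col4a1 was at 49.1, 47.1 and 51.7 CPM with Eif3m siRNA, against 43.3, 56.4 and 46.6 CPM with control siRNA (log2 fold change 0.02, SE 0.12, adjusted p = 0.946). Col4a2 was then at 47.8, 39.2 and 41.6 CPM with Eif3m siRNA, against 35.1, 37.5 and 40.5 CPM with control siRNA (0.18, SE 0.12, adjusted p = 0.299). The groups overlapped in both, and the siRNA effect was not called as different between the days for Col4a1 (adjusted p = 0.218) or Col4a2 (adjusted p = 0.33). The day 9 call of Col4a1 was lost without Eif3m siRNA replicate 1 or 2 or any control replicate of that day (adjusted p 0.0627 to 0.155), and that of Col4a2 without Eif3m siRNA replicate 1 or control replicate 3 (0.0575 to 0.0628). Without a stated strand setting, reads from the overlap of the pair, and from that of Col4a2 with Gm15419, cannot be assigned with certainty.

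Type VI collagen forms beaded microfibrils that link cells to fibrils. Its chains Col6a1 and Col6a2 overlapped between groups at day 9 and were lower at day 13. Col6a1 was at 8.90, 7.55 and 7.82 CPM with Eif3m siRNA at day 9, against 7.64, 8.67 and 6.27 CPM with control siRNA (adjusted p = 0.695). It was at 7.13, 9.18 and 8.32 CPM with Eif3m siRNA at day 13, against 11.4, 13.7 and 12.1 CPM with control siRNA (log2 fold change -0.59, SE 0.16, adjusted p = 0.0195). All siRNA libraries of day 13 lay below the controls. The call was lost without Eif3m siRNA replicate 1 or 3 or control replicate 2 of that day (adjusted p 0.0555 to 0.0708).

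Col6a2 was at 6.89, 6.23 and 6.28 CPM with Eif3m siRNA at day 9, against 5.30, 7.32 and 5.31 CPM with control siRNA (adjusted p = 0.72). It was at 4.06, 5.29 and 4.82 CPM with Eif3m siRNA at day 13, against 9.55, 13.0 and 8.88 CPM with control siRNA (log2 fold change -1.13, SE 0.20, adjusted p = 0.00123). The groups lay well apart, and the call held without any single library. The ratio of Col6a1 to Col6a2 CPM within a library was 1.76, 1.74 and 1.73 with Eif3m siRNA at day 13, against 1.20, 1.05 and 1.37 with control siRNA. The ratios of the groups did not overlap at day 13, and the difference between the chains was not tested. This ratio was picked from several. Those of Col1a1 to Col1a2, Col4a1 to Col4a2, Col3a1 to Col1a1 and Timp1 to Timp2 overlapped between the groups at day 13. The ratio of Col1a1 to Col1a2 lay apart at day 9, at 0.689, 0.646 and 0.589 with Eif3m siRNA, against 0.507, 0.54 and 0.384 with control siRNA. The ratio of Col6a1 to Col6a2 at day 9 was 1.29, 1.21 and 1.25 with Eif3m siRNA, against 1.44, 1.18 and 1.18 with control siRNA. The third chain, Col6a3, was called at neither day (log2 fold change 0.38, SE 0.19 at day 9 and -0.07, SE 0.23 at day 13).

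Col14a1 encodes a collagen that sits on the surface of fibrils. It was at 89.4, 75.8 and 76.5 CPM with Eif3m siRNA at day 9, against 60.6, 65.0 and 56.9 CPM with control siRNA (log2 fold change 0.41, SE 0.11, adjusted p = 0.0296). Its day 13 levels were 57.5, 69.5 and 56.1 CPM with Eif3m siRNA, against 93.9, 93.8 and 100 CPM with control siRNA (log2 fold change -0.65, SE 0.12, adjusted p = 0.00113). The groups did not overlap at either day, and here the 3 control libraries of day 13 lay close together. The difference between the days was -1.06 (SE 0.16, adjusted p = 0.00554), and it kept its call without any single library, as did the day 13 call. The day 9 call was lost without Eif3m siRNA replicate 1 or 2 or control replicate 1 or 3 of that day (adjusted p 0.0515 to 0.135).

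Small leucine-rich proteoglycans bind collagen fibrils and set their spacing, and decorin (Dcn) also binds TGF-beta. None of the 3 was called at either day. At day 9 the log2 fold changes were 0.35 for Lum (SE 0.15), 0.10 for Dcn (SE 0.12) and 0.15 for Bgn (SE 0.11). At day 13 they were 0.16 for Lum (SE 0.18), -0.30 for Dcn (SE 0.12) and -0.31 for Bgn (SE 0.11). Every siRNA library of day 13 lay below every control library in Dcn, at 147 to 149 CPM with Eif3m siRNA and 167 to 204 CPM with control siRNA. Bgn was then at 106 to 133 CPM with Eif3m siRNA and 138 to 152 CPM with control siRNA, and its adjusted p was 0.0593.

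Elastic fibres consist of elastin (Eln) on a scaffold of fibrillin microfibrils (Fbn1), assembled with the help of fibulin-5 (Fbln5). Eln was at 3.14, 2.85 and 2.17 CPM with Eif3m siRNA at day 9, against 1.62, 1.5 and 1.18 CPM with control siRNA (log2 fold change 0.92, SE 0.24, adjusted p = 0.0255). Fbn1 was at 4.68, 4.53 and 3.39 CPM with Eif3m siRNA, against 2.57, 3.14 and 1.83 CPM with control siRNA (log2 fold change 0.73, SE 0.21, adjusted p = 0.0384). Both were higher in every siRNA library of day 9 than in any control library. At day 13 Eln was at 4.90, 2.69 and 3.50 CPM with Eif3m siRNA, against 4.17, 6.84 and 4.12 CPM with control siRNA (log2 fold change -0.46, SE 0.28, adjusted p = 0.264). Fbn1 was then at 3.08, 4.73 and 3.18 CPM with Eif3m siRNA, against 4.04, 5.13 and 4.44 CPM with control siRNA (-0.29, SE 0.27, adjusted p = 0.479). The groups overlapped in both at day 13, and Fbln5 was called at neither day. The day 9 call of Eln was lost without Eif3m siRNA replicate 1 or 2 or control replicate 2 or 3 of that day (adjusted p 0.0629 to 0.106). That of Fbn1 was lost without Eif3m siRNA replicate 1 or 2, control replicate 1 or 3 of that day, or day 13 Eif3m siRNA replicate 3 (0.0513 to 0.144). Exons of Eln overlap those of Gm30003, and exons of Fbn1 those of Gm9913.

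Fn1, by far the most abundant of the 39 per length, was called at neither day. It was at 2310, 2384 and 2054 CPM with Eif3m siRNA at day 9, against 1640, 2069 and 1844 CPM with control siRNA (log2 fold change 0.28, SE 0.14, adjusted p = 0.207). Day 13 libraries had 1372, 1720 and 1513 CPM with Eif3m siRNA, against 1695, 1696 and 2128 CPM with control siRNA (-0.26, SE 0.14, adjusted p = 0.193). The groups overlapped at both days.

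Ecm1 was the one gene of the 39 called lower at both days. In mice its product has been found to hold latent TGF-beta inactive. It was at 48.6, 52.2 and 52.9 CPM with Eif3m siRNA at day 9, against 70, 75.7 and 70.5 CPM with control siRNA (log2 fold change -0.49, SE 0.15, adjusted p = 0.0419). In the day 13 livers it was at 63.4, 41.6 and 55.8 CPM with Eif3m siRNA, against 125, 96.6 and 91.4 CPM with control siRNA (log2 fold change -0.96, SE 0.15, adjusted p = 0.000519). The groups did not overlap at either day, and the siRNA libraries of the 2 days lay at like levels. Its difference between the days was not called (-0.47, SE 0.21, adjusted p = 0.253). The day 13 call held without any single library, but the day 9 call was lost without any 1 of the day 9 libraries or day 13 Eif3m siRNA replicate 3 (adjusted p 0.065 to 0.134), while the log2 fold change stayed between -0.51 and -0.45. Exons of Ecm1 overlap the annotated Mir7014.

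Sparc binds collagen and guides its deposition, and Tgfbi, named for its induction by TGF-beta, links collagen to integrins. Tgfbi was at 38.4, 31.5 and 34.5 CPM with Eif3m siRNA at day 9, against 32.3, 30.5 and 30.2 CPM with control siRNA (log2 fold change 0.17, SE 0.12, adjusted p = 0.388). At day 13 it was at 29.2, 29.1 and 27.3 CPM with Eif3m siRNA, against 52.1, 54.0 and 40.6 CPM with control siRNA (log2 fold change -0.77, SE 0.13, adjusted p = 0.000609). The groups overlapped at day 9 and lay apart at day 13. The difference of -0.94 (SE 0.17, adjusted p = 0.0144) kept its call without any single library.

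Sparc was at 105, 81.9 and 92.2 CPM with Eif3m siRNA at day 9, against 79.8, 81.7 and 78.6 CPM with control siRNA (log2 fold change 0.22, SE 0.17, adjusted p = 0.454). Its day 13 levels were 122, 93.2 and 119 CPM with Eif3m siRNA, against 168, 248 and 146 CPM with control siRNA (log2 fold change -0.75, SE 0.17, adjusted p = 0.00688). All siRNA libraries lay below the controls at day 13, where control replicate 2 was again the highest. Without it the log2 fold change was -0.49 and the call held. The Sparc difference between the days was not called (-0.96, SE 0.24, adjusted p = 0.0535). It was called under 6 of 21 alternative settings.

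Lysyl oxidases crosslink collagen and elastin. Lox had the lowest level of the tested genes per length and was at 0.45 to 0.682 CPM with Eif3m siRNA at day 9, against 0.241 to 0.386 CPM with control siRNA (log2 fold change 0.94, SE 0.39, adjusted p = 0.137). Day 13 libraries had 0.42 to 0.767 CPM with Eif3m siRNA, against 0.673 to 1.99 CPM with control siRNA (-1.15, SE 0.50, adjusted p = 0.112). Its standard errors were the widest of the 38 genes at both days, and exons of Lox overlap those of AC161119.1. Loxl1 had log2 fold changes of 0.50 at day 9 (SE 0.27) and 0.48 at day 13 (SE 0.38), neither called.

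Of the matrix proteases, Mmp2 encodes gelatinase A and Mmp14 the membrane protease that activates it. Mmp2 was at 4.88, 3.18 and 3.65 CPM with Eif3m siRNA at day 9, against 2.60, 2.85 and 2.46 CPM with control siRNA (log2 fold change 0.56, SE 0.26, adjusted p = 0.175). In the day 13 livers it was at 3.64, 5.56 and 3.61 CPM with Eif3m siRNA, against 3.10, 7.41 and 3.57 CPM with control siRNA (-0.10, SE 0.32, adjusted p = 0.859). The day 9 groups lay apart and the day 13 groups overlapped. Mmp14 was at 36.4 to 47.9 CPM with Eif3m siRNA and 27.4 to 34.3 CPM with control siRNA at day 9 (0.39, SE 0.13, adjusted p = 0.0603), and its day 13 log2 fold change was -0.00 (SE 0.13). Under 6 of 22 alternative settings Mmp14 was called higher at day 9.

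Of the TIMPs, Timp2 alone was called. It was at 23.0, 20.2 and 21.4 CPM with Eif3m siRNA at day 9, against 19.6, 23.2 and 20.8 CPM with control siRNA (log2 fold change 0.02, SE 0.11, adjusted p = 0.936). At day 13 it was at 24.2, 21.8 and 20.6 CPM with Eif3m siRNA, against 30.0, 35.9 and 36.5 CPM with control siRNA (log2 fold change -0.62, SE 0.12, adjusted p = 0.00226). The groups were mixed at day 9 and lay apart at day 13, and the day 13 call held without any single library. Timp3 was called at neither day, and its exons overlap those of Syn3.

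Timp1, a TIMP that is strongly induced in many fibrotic livers, was close to the detection limit. Its counts were 14, 11 and 8 with Eif3m siRNA at day 9, against 2, 8 and 3 with control siRNA. Scaled to library size, these were 0.251, 0.183 and 0.165 CPM with Eif3m siRNA, against 0.0514, 0.156 and 0.0724 CPM with control siRNA. On that scale the day 9 groups lay apart. The day 13 libraries, of lower depth, had counts of 1, 0 and 0 with Eif3m siRNA, against 1, 0 and 3 with control siRNA, and the groups overlapped. These counts were too few for Timp1 to pass the filter, and no fold change is given.

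Among signals and receptors, Tgfb1 encodes the main profibrotic cytokine of the liver, Hgf the hepatocyte growth factor that stellate cells secrete, and Pdgfra and Pdgfrb the PDGF receptors. None of the 4 was called. Tgfb1 was at 13.0, 10.6 and 10.8 CPM with Eif3m siRNA at day 9, against 8.77, 9.10 and 8.64 CPM with control siRNA (log2 fold change 0.38, SE 0.14, adjusted p = 0.0921). Its day 13 levels were 9.51, 9.46 and 11.3 CPM with Eif3m siRNA, against 15.5, 11.5 and 10.9 CPM with control siRNA (-0.32, SE 0.16, adjusted p = 0.162). The groups lay apart at day 9 and overlapped at day 13. Pdgfrb, the receptor typical of stellate cells, was at 14.8, 13.6 and 13.0 CPM with Eif3m siRNA at day 9, against 11.5, 12.9 and 10.6 CPM with control siRNA (0.24, SE 0.12, adjusted p = 0.228). Day 13 libraries had 12.3, 14.1 and 13.9 CPM with Eif3m siRNA, against 14.4, 18.5 and 18.4 CPM with control siRNA (-0.35, SE 0.14, adjusted p = 0.0878). Its groups lay narrowly apart at both days. Hgf had log2 fold changes of 0.57 (SE 0.34) at day 9 and -0.27 (SE 0.41) at day 13, and Pdgfra of 0.30 (SE 0.19) and 0.29 (SE 0.23).

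The contractile and intermediate filament genes Acta2, Des and Tagln were called at neither day. Acta2 was at 3.61, 2.98 and 3.28 CPM with Eif3m siRNA at day 9, against 2.88, 4.20 and 2.97 CPM with control siRNA (log2 fold change -0.03, SE 0.18, adjusted p = 0.939). In the day 13 livers it was at 3.50, 3.99 and 3.72 CPM with Eif3m siRNA, against 2.69, 4.27 and 3.14 CPM with control siRNA (0.16, SE 0.24, adjusted p = 0.676). The groups overlapped at both days. Des, which encodes the intermediate filament desmin of rodent stellate cells, was at 3.98, 3.27 and 3.03 CPM with Eif3m siRNA at day 9, against 3.52, 4.20 and 3.64 CPM with control siRNA (-0.15, SE 0.17, adjusted p = 0.641). At day 13 Des was at 4.06, 2.97 and 3.07 CPM with Eif3m siRNA, against 3.23, 4.99 and 4.12 CPM with control siRNA (-0.30, SE 0.23, adjusted p = 0.367). Its groups overlapped too, and Tagln, which encodes the actin-binding protein transgelin, had log2 fold changes of -0.08 (SE 0.20) at day 9 and -0.15 (SE 0.25) at day 13.

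Lrat makes the retinyl esters that stellate cells store. It was at 22.9, 18.9 and 25.2 CPM with Eif3m siRNA at day 9, against 14.8, 25.8 and 26.5 CPM with control siRNA (log2 fold change -0.00, SE 0.19, adjusted p = 0.998). At day 13 it was at 18.3, 17.3 and 19.9 CPM with Eif3m siRNA, against 16.3, 21.4 and 22.2 CPM with control siRNA (-0.11, SE 0.21, adjusted p = 0.761). The spread among controls was wider than any difference between the groups. Reln, which encodes the secreted glycoprotein reelin, had log2 fold changes of 0.30 (SE 0.15) at day 9 and -0.19 (SE 0.15) at day 13. Exons of Reln, and likewise of Fn1, Hgf, Pdgfra, Tagln and Des, overlap exons of other annotated genes, which makes their counts less certain.

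Colec11 encodes a soluble lectin of the complement system. It was at 27.8, 24.4 and 24.2 CPM with Eif3m siRNA at day 9, against 24.1, 24.4 and 23.8 CPM with control siRNA (adjusted p = 0.772). Its day 13 levels were 36.9, 25.3 and 32.4 CPM with Eif3m siRNA, against 45.6, 50.2 and 34.8 CPM with control siRNA (log2 fold change -0.47, SE 0.15, adjusted p = 0.0422). The day 13 groups overlapped, and the call was lost without 9 of the 12 libraries in turn (adjusted p 0.0502 to 0.161), holding without Eif3m siRNA replicate 1 of either day or control replicate 3 of day 13.

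Lgals3, galectin-3, is a lectin of macrophages and of injured epithelia. It had the largest day 9 log2 fold change of the 38 genes. It was at 7.28, 6.53 and 6.65 CPM with Eif3m siRNA, against 2.70, 2.34 and 2.53 CPM with control siRNA (log2 fold change 1.43, SE 0.22, adjusted p = 0.00103), or 2.70-fold. The groups lay far apart, and this was the one day 9 call of the 38 genes that held whichever single library was left out. Day 13 libraries had 5.45, 2.87 and 3.50 CPM with Eif3m siRNA, against 2.83, 4.13 and 1.84 CPM with control siRNA (0.42, SE 0.29, adjusted p = 0.32), with overlapping groups. Of 16 tested markers of monocytes and infiltrating macrophages, 6 were called higher and none lower at day 9, and their sum was 157 to 175 CPM with Eif3m siRNA and 74.9 to 90 CPM with control siRNA. At day 13 none of these markers was called higher and 4 were lower, and their sum was 111 to 146 CPM with Eif3m siRNA and 170 to 218 CPM with control siRNA. The shares called in either direction were 37.5% at day 9 and 25% at day 13, against 12.8% and 23.7% of all tested genes. None of the markers was listed at 0 in any of the groups, and their part in the Lgals3 result was not tested.

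**Figure D3:**
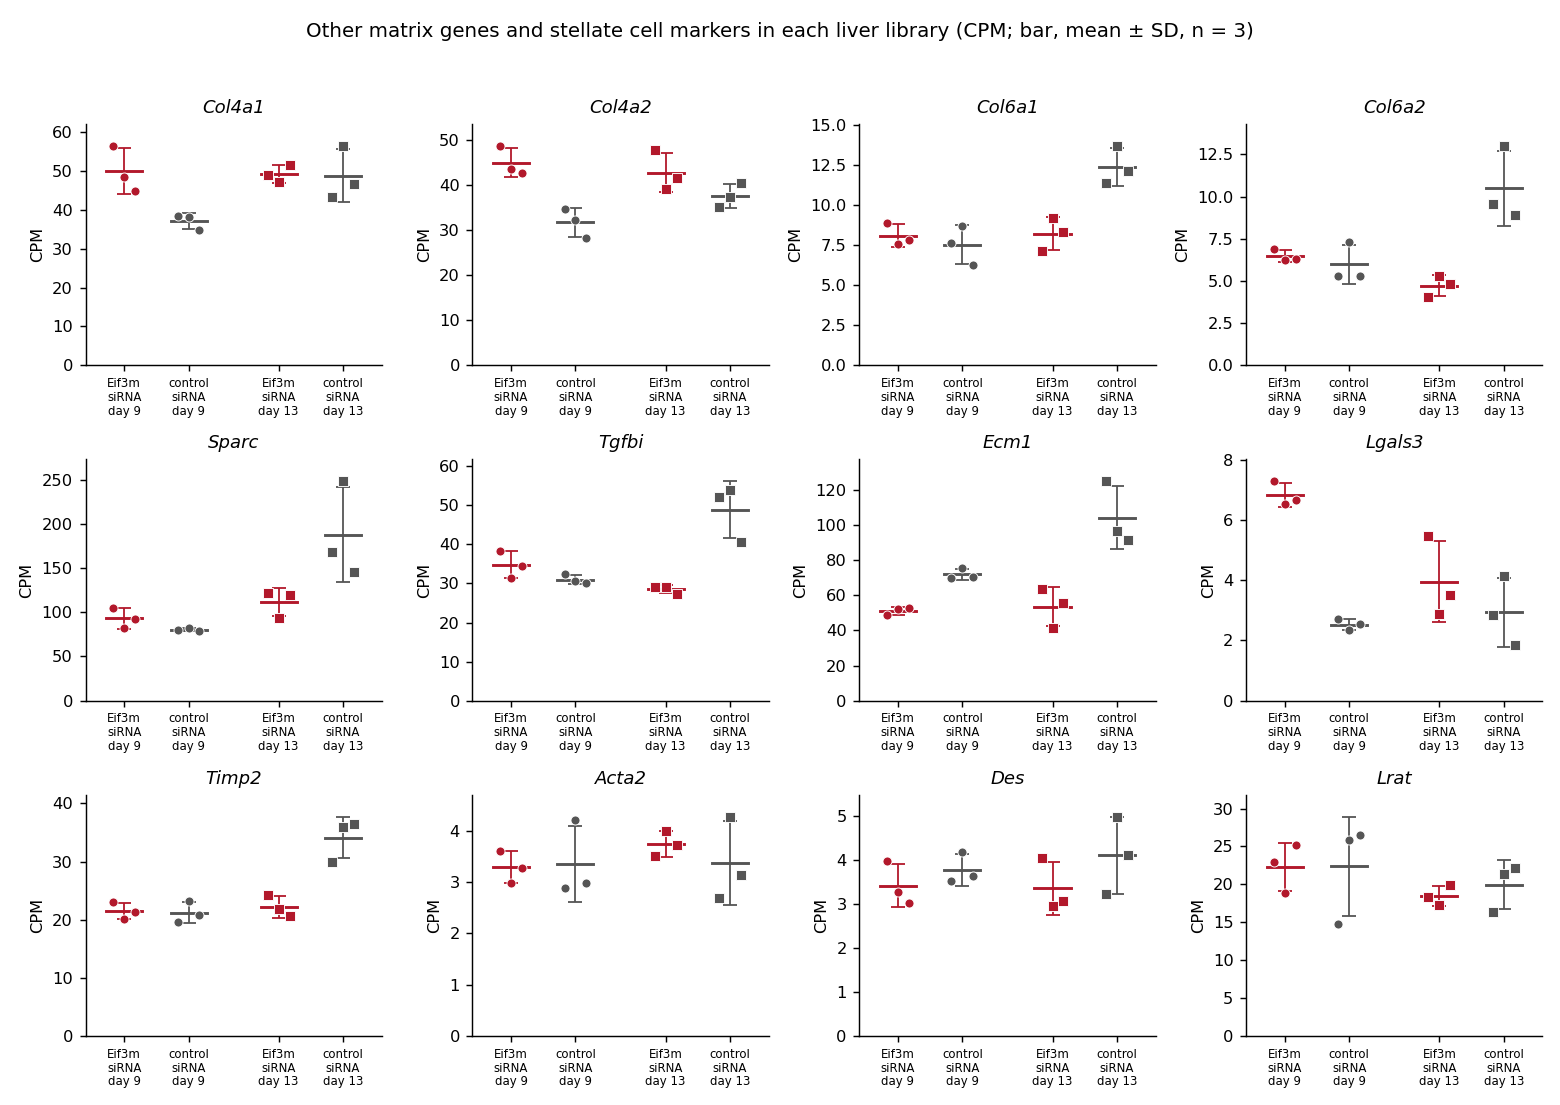
CPM (vertical axis, from 0) of Col4a1, Col4a2, Col6a1, Col6a2, Sparc, Tgfbi, Ecm1, Lgals3, Timp2, Acta2, Des and Lrat in each library; at each day Eif3m siRNA (red) stands left of control siRNA (grey), points are libraries, bars the mean and whiskers the SD of 3. Ecm1 lies below the controls at both days, Lgals3 above them at day 9, and Acta2, Des and Lrat overlap at both days.

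Single libraries ranked high or low across many of these genes at once. At day 9, Eif3m siRNA replicate 1 was the highest of its group in 30 of the 38 genes, against 29.9% of all tested genes, and control replicate 2 was the highest of its group in 26. At day 13, Eif3m siRNA replicate 1 was the highest of its group in 17 of the 38, and control replicate 2 in 27, against 31.3% of all tested genes for that control. Without day 9 Eif3m siRNA replicate 1, the count of genes called higher at day 9 was 1 in place of 7, and it was 1 also without day 9 control replicate 3, with Lgals3 as the gene that remained. Over all tested genes, 433 of 12899 and 435 of 12916 were called higher in these fits, against 846 of 14248 with all libraries. The count among the 38 genes was 2 without day 9 Eif3m siRNA replicate 2, 3 without control replicate 1 and 4 without control replicate 2 of that day. In the same order, 413 of 12894, 490 of 12877 and 491 of 12915 tested genes were then called higher. The count called lower at day 13 was 8 in place of 13 without day 13 control replicate 2, and 8 also without day 13 Eif3m siRNA replicate 3. Over all tested genes, 1327 of 15501 and 1092 of 15470 were called lower in these fits, against 1553 of 14248 with all libraries. The 8 genes were the same in both cases, namely Col1a2, Col5a2, Col6a2, Col14a1, Sparc, Ecm1, Tgfbi and Timp2. The count for the difference between the days was 2 in place of 8 without day 9 Eif3m siRNA replicate 1 or day 13 Eif3m siRNA replicate 3, 3 without day 9 control replicate 1, 4 without day 9 control replicate 3 and 5 without day 13 control replicate 2. In the same order, 130 of 12899, 155 of 15470, 172 of 12877, 207 of 12916 and 319 of 15501 tested genes were called for the difference. With all libraries 364 of 14248 were called for it. Col14a1 and Tgfbi kept that call without any single library. With day 13 control replicate 3 and day 13 Eif3m siRNA replicate 2 both left out, 11 genes were called lower at day 13 and 7 for the difference. Of all 15591 genes tested in that fit, 1416 were called lower at day 13 and 518 for the difference.

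Settings other than a left-out library ended some calls. With day 9 counts thinned to the day 13 depth, Col3a1, Col4a2 and Lgals3 of the 7 genes higher at day 9 were called, and Lum and Tgfb1 became called, while Col4a1, Col14a1, Eln, Fbn1 and Ecm1 were not (adjusted p 0.0667 to 0.222). With no filter on low counts, Col3a1 and Col14a1 were not called at day 9 (adjusted p 0.0759 and 0.065), nor Col1a1 and Col5a1 at day 13 (0.0725 and 0.0842). Col1a1 was not called at day 13 either with day 13 control replicate 3 and Eif3m siRNA replicate 2 both left out (adjusted p = 0.0535). The day 13 call of Col5a1 was lost under 6 of the 10 settings (adjusted p 0.0524 to 0.109) and that of Colec11 under 3 (0.052 to 0.122), and that of Col6a1 was lost by limma-voom (0.0523).

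The other lists are read against the share of all tested genes called in either direction, which was 12.8% at day 9 and 23.7% at day 13. Among upstream signals of stellate cell activation, 6.25% of the TGF-beta ligands, latency genes and receptors were called at day 9 and 12.5% at day 13. Of these 16 tested genes, 1 was higher and none lower at day 9, and 1 was higher and 1 lower at day 13. The receptor gene Tgfbr1 had a log2 fold change of 0.64 at day 9 (SE 0.18, adjusted p = 0.0328). Thbs1, whose product can release TGF-beta from its latent form, had log2 fold changes of 0.84 at day 9 (SE 0.266, adjusted p = 0.0534) and -1.25 at day 13 (SE 0.348, adjusted p = 0.0188). Itgav, an integrin subunit that takes part in TGF-beta activation, was higher at day 13 (1.33, SE 0.26, adjusted p = 0.00268). Of 16 SMAD genes and early TGF-beta targets, 2 were higher and none lower at day 9, and 1 was higher and 3 lower at day 13, shares of 12.5% and 25%, near those of all tested genes. Ccn2, connective tissue growth factor, had a log2 fold change of 1.16 at day 9 (SE 0.154, adjusted p = 0.000503) and -0.77 at day 13 (SE 0.187, adjusted p = 0.00878), a difference of -1.93 (SE 0.242, adjusted p = 0.00242). Skil, a repressor of SMAD signalling that TGF-beta itself induces, was higher at day 9 (log2 fold change 1.3, SE 0.281, adjusted p = 0.0111). Of 4 PDGF ligands, Pdgfa was called higher at both days, by 0.55 at day 9 (SE 0.124) and 0.76 at day 13 (SE 0.141).

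Of 18 tested genes for collagen synthesis and processing, 1 was higher and 1 lower at day 9, and 1 was higher and 3 lower at day 13. These shares of 11.1% and 22.2% were near those of all tested genes. P4ha2, a collagen prolyl hydroxylase subunit, had log2 fold changes of 0.55 at day 9 (SE 0.138, adjusted p = 0.0188) and 1.25 at day 13 (SE 0.162, adjusted p = 0.000119). P4ha1, another form of that subunit, was lower at day 13 (-0.66, SE 0.118, adjusted p = 0.00121), as was Mia3, needed to export procollagen (-0.63, SE 0.103, adjusted p = 0.000626). Pcolce2 was lower at day 9 (-2.91, SE 0.331, adjusted p = 0.000161) and was not called at day 13. Of 13 other collagen genes none was called at day 9, and 2 were lower and none higher at day 13. The list's median log2 fold change was -0.11 at day 9 and -0.67 at day 13.

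The calls among other matrix genes made up 4.76% to 15.8% of the 3 larger lists at day 9 and 21.1% to 26.7% at day 13, on both sides of the shares of all tested genes. Of 15 laminin, nidogen and basement membrane proteoglycan genes, 1 was higher and none lower at day 9, and 1 was higher and 3 lower at day 13. Nid1, which joins laminin to type IV collagen, was higher by 0.71 on the log2 scale at day 9 (SE 0.143, adjusted p = 0.00575), and Lama1, a laminin chain, was lower at day 13 (log2 fold change -1.11, SE 0.217, adjusted p = 0.00224). Of 21 other glycoproteins and proteoglycans, 1 was higher and none lower at day 9, and 2 were higher and 3 lower at day 13. Of 19 other proteases and inhibitors, 1 was higher and 2 lower at day 9, and 1 was higher and 3 lower at day 13. Ctsl, the lysosomal protease cathepsin L, was higher at both days (0.90, SE 0.177 at day 9 and 1.85, SE 0.182 at day 13), and Mmp19 was lower at both, with a log2 fold change of -1.18 at day 9 (SE 0.131). Of 5 other crosslinking enzymes none was called at day 9, and Tgm2 was higher and Tgm1 lower at day 13. Of 12 matrix receptors, Cd44, a receptor for hyaluronan, was the one called higher at day 9 (1.27, SE 0.152, adjusted p = 0.000256), and 2 were lower at day 13.

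Of 19 tested markers of stellate cells outside the 39 genes, none was called at day 9, and 2 were higher and 6 lower at day 13, a share of 42.1%. The higher ones were Angptl6 (log2 fold change 0.70, adjusted p = 0.0226) and Adamtsl2 (0.69, adjusted p = 0.00647). The lower ones included Vipr1, Colec10, Steap4 and Sod3. The summed level of the list was 526 to 597 CPM with Eif3m siRNA and 447 to 545 CPM with control siRNA at day 9, and 431 to 477 CPM with Eif3m siRNA and 550 to 637 CPM with control siRNA at day 13. Tmem56, not called, was a large part of the day 9 sum, at a mean of 244 CPM with Eif3m siRNA and 170 CPM with control siRNA. Steap4 went the other way at day 9, at 82.4 CPM with Eif3m siRNA and 111 CPM with control siRNA. Of 15 markers of activated myofibroblasts, 3 were higher and none lower at day 9 (Ccn2, Vim and Lpl), and 3 were higher and 1 lower at day 13 (Postn and Lpl among the higher ones, Ccn2 lower). These shares were 20% and 26.7%, against 12.8% and 23.7% of all tested genes. Some lists share genes. Ccn2 is also counted among the early TGF-beta targets, and Postn among the other glycoproteins. Vim, the intermediate filament vimentin of mesenchymal and immune cells, had a log2 fold change of 0.87 at day 9 (SE 0.185, adjusted p = 0.00804) and -0.09 at day 13. Of 12 markers of portal fibroblasts and mesothelium none was called at day 9, and 1 was lower at day 13, a share of 8.33%. Of 8 smooth muscle markers, 1 was lower at day 9 and 3 were lower at day 13, with none higher, shares of 12.5% and 37.5%.

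Markers of other liver cells are read against the same shares of all tested genes, 12.8% at day 9 and 23.7% at day 13. Of 15 Kupffer cell markers, 1 was higher and 6 lower at day 9, and none was higher and 12 lower at day 13, shares of 46.7% and 80%. Their summed level was 675 to 773 CPM with Eif3m siRNA and 655 to 827 CPM with control siRNA at day 9, and 392 to 477 CPM with Eif3m siRNA and 771 to 859 CPM with control siRNA at day 13. Of 14 sinusoidal endothelial markers, 1 was higher at day 9 and 4 were lower at day 13, shares of 7.14% and 28.6%. Their summed level was 601 to 652 CPM with Eif3m siRNA and 567 to 622 CPM with control siRNA at day 9, and 526 to 585 CPM with Eif3m siRNA and 599 to 726 CPM with control siRNA at day 13. The hepatocyte markers summed to 133151 to 203836 CPM with Eif3m siRNA and 212812 to 241814 CPM with control siRNA at day 13. Alb again made up most of that sum, at a mean of 98291 CPM with Eif3m siRNA and 155320 CPM with control siRNA. Of the 12 markers 3 were called higher and 3 lower at day 13, a share of 50%, with a median log2 fold change of -0.06. No marker of these 3 lists was listed at 0 throughout any group. The part of these markers in the collagen, Sparc, Tgfbi, Timp2, Ecm1 and Colec11 results was not tested.

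**Figure D4:**
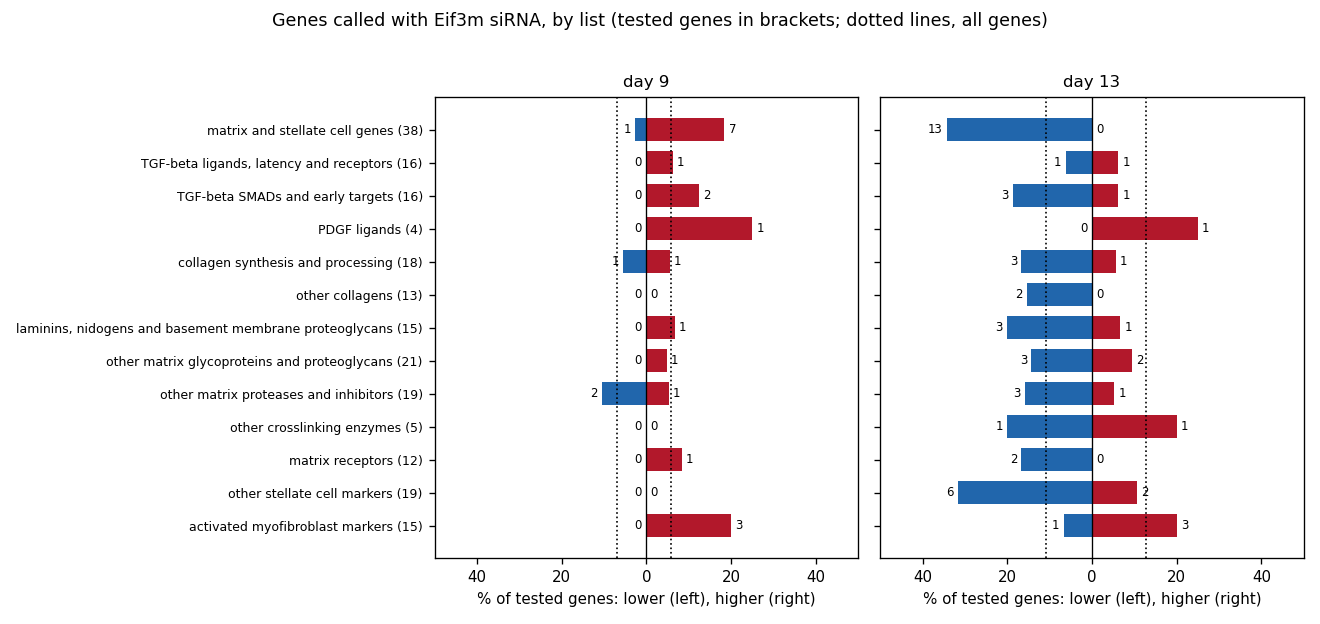
Percentage of the tested genes of each list (horizontal axis) called lower (blue, to the left) and higher (red, to the right) with Eif3m siRNA at day 9 and day 13; numbers at the bars are counts of genes, and dotted lines give the share over all tested genes. The 39 matrix and stellate cell genes, of which 38 were tested, have 7 higher and 1 lower at day 9, and none higher and 13 lower at day 13.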

How the data were processed

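The authors deposited estimated counts per Ensembl gene for 12 libraries as whole numbers, which were taken as rounded expected counts. STAR 2.5.3a, RSEM 1.3.0 and mm10 are named per the submitters' processing notes; which annotation and strand setting were used is not given in the sources used here. Symbols and exon overlaps came from GENCODE for mm10, with 50462 of 50686 IDs matched and the rest holding 0.0199% of counts.

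Genes were filtered with filterByExpr of edgeR 4.0.16 (minimum count 10) and scaled by TMM, as are the CPM. The test was edgeR's two-sided quasi-likelihood test on all 12 libraries (4 groups, 8 residual degrees of freedom), adjusted by Benjamini-Hochberg over 14248 genes and called at 0.05. An exact permutation test of 3 libraries against 3 cannot give a p under 0.1. The steps were tested on simulated data. Libraries of a group differed by more than sampling noise.

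The genes and lists were chosen with earlier results of these data known. Values in every library are given for called genes and 10 defining genes, and up to 4 called genes are named per list. For the other stellate cell markers, those called higher at day 13 are named as well. Alternatives were DESeq2 1.42.0, limma 3.58.1 (voom), other scalings and filters, a replicate block, each day alone, thinned day 9 counts and libraries left out. R 4.3.3 and Python 3.11.15 were used.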

Additional observations from a re-analysis of the deposited data

Results flagged for a closer look

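In 8 of the 38 tested genes the siRNA effect differed between the days, by edgeR's test of the day 13 effect minus the day 9 effect. This difference, on the log2 scale, was -2.34 for Col1a1 (SE 0.49, adjusted p = 0.0362), -1.65 for Col1a2 (SE 0.32, adjusted p = 0.0209) and -1.70 for Col3a1 (SE 0.33, adjusted p = 0.0209). It was -0.84 for Col5a1 (SE 0.20, adjusted p = 0.0463) and -1.53 for Col5a2 (SE 0.32, adjusted p = 0.0266). For Col6a2 it was -1.24 (SE 0.26, adjusted p = 0.0266), for Col14a1 -1.06 (SE 0.16, adjusted p = 0.00554) and for Tgfbi -0.94 (SE 0.17, adjusted p = 0.0144).

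For Col14a1 and Tgfbi the difference kept its call without any single library. For Col1a2 and Col3a1 it was lost without Eif3m siRNA replicate 1 or control replicate 1 of day 9 or Eif3m siRNA replicate 3 of day 13, with an adjusted p of 0.0518 to 0.0627 for Col1a2 and 0.0506 to 0.0604 for Col3a1. For Col1a1 it was lost without Eif3m siRNA replicate 1 or 3 or control replicate 1 or 3 of day 9, or Eif3m siRNA replicate 2 or 3 of day 13, with an adjusted p of 0.0529 to 0.103. For Col5a2 it was lost in 5 of the 12 fits without 1 library (adjusted p 0.053 to 0.0808), for Col6a2 in 7 (0.052 to 0.0745) and for Col5a1 in 10 (0.0592 to 0.114). The days are separate library sets of unlike depth, and day and library set cannot be told apart.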

How the results depend on the processing

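Of 625 called values of the 38 genes recomputed under the alternatives, 501 kept their call, 124 lost it and 0 reversed. Of 1811 values not called, 41 became called, and 62 changed sign without being called in either case. Genes called at day 9 numbered 1821, and 2749 by limma-voom, 3412 with each day fitted alone and 3050 without day 13 control replicate 3 and Eif3m siRNA replicate 2. At day 13 they numbered 3377, and 2014 with each day alone. For the difference they numbered 364, and 968 by DESeq2, 117 with the replicate block and 223 with day 9 counts thinned to the day 13 depth. Genes called higher at day 9 numbered 846, and 1315 by limma-voom and 542 with the block, all of 14248 tested. They numbered 1687 of 14817 with each day alone and 537 of 12537 with thinned counts. Of the 38 genes, 7 were higher at day 9, and 12 by limma-voom, 4 with the block, 11 with each day alone and 5 with thinned counts. The 1 lower at day 9 became 0 with upper-quartile scaling or thinning. The 8 called for the difference became 4 with the block and 12 by DESeq2. Upper-quartile scaling gave 1574 higher and 1808 lower genes at day 13, against 1824 and 1553 with TMM, and of the 38 genes 15 lower and none higher. With 1 library left out, called genes numbered 884 to 2250 at day 9, 2299 to 3288 at day 13 and 130 to 508 for the difference; of the 38 genes, 1 to 9 were higher and 0 to 1 lower at day 9, 8 to 13 were lower at day 13 and 2 to 8 were called for the difference. Libraries of the same replicate number showed no sign of deviating together (correlations -0.11, -0.16 and 0.16 at day 9, and 0.08, -0.07 and -0.01 at day 13). Pairs of other numbers ranged from -0.14 to 0.23. The number was not used as a pairing in the main fit, but so few correlations cannot exclude one. Thinning and leaving out libraries reduce counts or samples by construction; the cause of the other changes was not tested. Low counts limit Timp1 and Lox most.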
